A study of Mus musculus with 6 samples.

Results

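The 7 genes described here mark lymphatic endothelium or belong to the signalling system of the growth factor VEGF-C: Lyve1, Prox1, Flt4, Vegfc, Pdpn, Nrp2 and Reln. They were chosen by symbol from the 26971 features of the count table, and all 7 were found. Polyadenylated RNA of kidney cortex was taken from C57BL/6 males 1 day after surgery. Ratios below are log2 of congested IRI over IRI, ± standard error (SE). One group, IRI (labelled CLK_IRI), had ischaemia-reperfusion injury, in which renal blood flow is stopped and restored. The other, congested IRI (labelled Cong_IRI, treatment IRI with IVCC), had the same injury with renal congestion. The labels do not expand CLK or IVCC. Each group held 3 libraries numbered 1 to 3. Both groups carry the injury and no uninjured kidney was analysed here, so the values compare congestion on top of injury.

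Lymphatic vessels drain fluid, protein and immune cells from the interstitium, and in the kidney cortex they run mainly along the arteries. Their growth is driven by VEGF-C, a secreted ligand that is activated by proteolysis and binds the receptor tyrosine kinase encoded by Flt4, with the neuropilin encoded by Nrp2 as co-receptor. Prox1 encodes the transcription factor that sets lymphatic endothelial identity. Lyve1 encodes a hyaluronan receptor, Pdpn a mucin-type membrane glycoprotein that binds the platelet receptor encoded by Clec1b, and Reln a secreted glycoprotein of collecting lymphatics. Of these, Lyve1 is also made by some macrophages, Pdpn by podocytes, mesothelium and fibroblasts, Prox1 by cells of the loop of Henle, and Nrp2 by blood vessel endothelium and other cells.

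Library totals ran from 10865860 to 14350425 counts. Levels are given as CPM, the counts scaled to a common library size after TMM correction, and 14274 genes passed the filter on low counts. Of the 7 genes 6 passed it, and Lyve1 did not. Replicate number 1 stood apart from the others in both groups. Summed CPM of 5 injured tubule markers was 44520 and 62730 in replicate 1 of IRI and congested IRI, and 5847 to 16610 in the other 4 libraries. Most of each sum was Spp1, at 40270 and 59310 CPM in those replicates 1. Havcr1, Lcn2, Krt20 and Sox9 of that list were also highest in replicate 1 of each group. Proximal tubule markers were detected throughout, at a summed 1449 to 6366 CPM over 5 genes. The 8 lymphatic markers, 6 of which are described here as members beside Mmrn1 and Ccl21a, summed to 40.7 to 46.6 CPM in IRI and 41.1 to 61.9 CPM in congested IRI, and none was at 0. The 10 blood endothelial markers summed to 348.1 to 450.3 and 386.1 to 466.5 CPM. Tissue RNA cannot tell fewer cells of a type from less RNA per cell. The labels do not state that each library is a separate animal, so the p-values measure the spread among these libraries.

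Of the 7 genes, Nrp2 alone had groups that did not overlap. It was 1.68-fold higher in congested IRI, whereas the VEGF-C receptor gene Flt4, the ligand gene Vegfc and the identity gene Prox1 had overlapping groups. No member passed the threshold. In edgeR's quasi-likelihood test 0 of 6 tested members had a Benjamini-Hochberg adjusted p under 0.05, against 0 of 14274 genes (percent called 0), and DESeq2 and limma-voom also called 0 members. At an unadjusted p under 0.05, 1 of 6 members passed, against 2% of all genes. Of the tested members 2 lay above 0, with a median log2 ratio of -0.09 against -0.00460 over all genes. Groups did not overlap with congested IRI higher in 1 of 6 members, against 3.42% of all genes, and with congested IRI lower in 0 of 6, against 3.07%. Within equal replicate numbers, 2 of 6 were higher in congested IRI in all 3 comparisons, against 13.1% of all genes, and 1 of 6 was lower in all 3, against 13.1%. Deviations from group means in IRI replicate 2 correlated at 0.342 with congested replicate 2 and at 0.401 with congested replicate 3. Numbers 2 and 3 were thus not told apart by the data, and within-number and blocked values rest on that uncertain match.

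**Figure D1:**
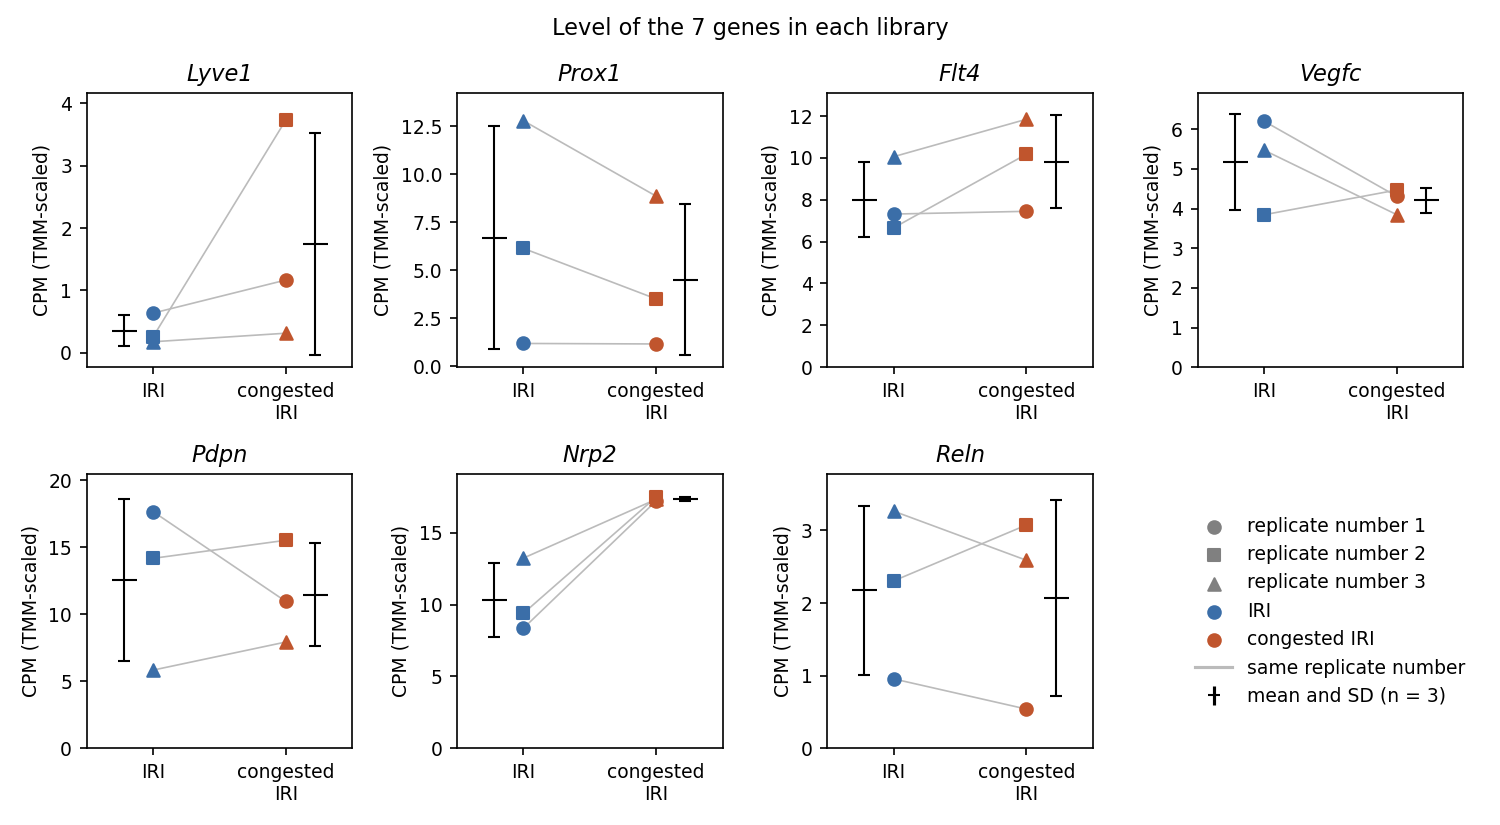
TMM-scaled CPM of the 7 genes in each library, with IRI and congested IRI on the horizontal axis, marker shapes for replicate numbers, grey lines joining equal numbers, and black bars for mean and SD (n = 3). The 3 congested libraries lie between 17.2 and 17.5 CPM for Nrp2, above the 3 IRI libraries at 8.35 to 13.2 CPM, and the groups overlap for the other 6 genes.

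Per kilobase of the longest annotated transcript, Pdpn had the highest mean level over the 6 libraries, at 6.61 CPM per kilobase (SD 2.52). It was followed by Nrp2 at 2.06 (SD 0.622), Vegfc at 1.91 (SD 0.389) and Flt4 at 1.43 (SD 0.330) CPM per kilobase. Prox1, Lyve1 and Reln had 0.710 (SD 0.583), 0.362 (SD 0.472) and 0.181 (SD 0.0963) CPM per kilobase. Pdpn lay above Nrp2 in every library without overlap of their ranges. Every other pair of neighbours in this order overlapped, and Nrp2 exceeded Vegfc in 3 of 6 libraries. The transcript lengths used were 1817 bases for Pdpn, 6723 for Nrp2, 2449 for Vegfc, 6255 for Flt4, 7913 for Prox1, 2893 for Lyve1 and 11699 for Reln.

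The ligand gene Vegfc spans bases 54077606 to 54187096 of chromosome 8, plus strand (GRCm38, protein-coding). IRI replicates 1, 2 and 3 held 78, 45 and 62 counts, or 6.20, 3.84 and 5.47 CPM. Congested replicates 1, 2 and 3 held 48, 61 and 49 counts, or 4.31, 4.47 and 3.84 CPM. All congested libraries lay within the IRI range, replicate 3 at its lower edge. The estimated log2 ratio was -0.30 ± 0.30 (SE, 95% interval -0.99 to 0.40, edgeR adjusted p = 0.933). Within numbers 1, 2 and 3 the log2 difference was -0.51, 0.21 and -0.49.

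The receptor gene Flt4 spans bases 49609263 to 49652739 of chromosome 11, plus strand. Its counts were 92, 78 and 114 in IRI and 83, 139 and 151 in congested IRI, in the order of replicates 1, 2 and 3. These came to 7.32, 6.66 and 10.1 CPM and to 7.45, 10.2 and 11.8 CPM. Congested replicates 2 and 3 were above every IRI library and congested replicate 1 was inside the IRI range. The log2 ratio came to 0.30 (± 0.29 SE, 95% interval -0.37 to 0.96, edgeR adjusted p = 0.933). Within numbers the difference was 0.03, 0.60 and 0.23. Blocking on replicate number gave 0.29, and 0.09 when the trend of counts with GC content and transcript length was also removed.

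The co-receptor gene Nrp2 spans bases 62703285 to 62818695 of chromosome 1, plus strand. IRI replicates 1, 2 and 3 held 105, 110 and 150 counts, or 8.35, 9.39 and 13.2 CPM. Their congested counterparts held 192, 239 and 221 counts, or 17.2, 17.5 and 17.3 CPM. All congested libraries were above all IRI libraries, and they lay closer together, at 17.4 ± 0.135 CPM (SD, n = 3) against 10.3 ± 2.58 CPM (SD, n = 3). At 192 to 239 counts, counting error alone would give a larger SD than 0.135 CPM, so nothing is drawn from that closeness. The log2 ratio was 0.75 ± 0.24 (SE, 95% interval 0.19 to 1.30). Its unadjusted p of 0.0147 ranked 24 among 14274 genes, and edgeR's adjusted p was 0.933. Within numbers 1, 2 and 3 the difference was 1.03, 0.89 and 0.38, higher in 3 of 3. With the block the log2 ratio was 0.77 (± 0.22 SE, edgeR adjusted p = 0.577), and 0.54 with the length and GC trend also removed. Leaving out each library in turn gave 0.62 to 0.97.

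Beside Nrp2, 3 of 10 blood endothelial markers, against 3.42% of all genes, also had congested libraries above all IRI libraries. They are named here after their values were seen. Pecam1, an endothelial adhesion molecule, lay at 45.7 ± 3.45 against 60.4 ± 1.48 CPM (SD, n = 3). Cdh5, the endothelial cadherin, lay at 17.1 ± 7.04 against 29.6 ± 0.386 CPM (SD, n = 3). Eng, a co-receptor of the TGF-beta family, lay at 48.9 ± 5.86 against 70.8 ± 5.60 CPM (SD, n = 3). The blood endothelial list as a whole had 5 of 10 genes above 0 and a median log2 ratio of 0.04, and its summed ranges, given above, overlapped. The 5 below 0 were Plvap (-0.38), Egfl7 (-0.26), Emcn (-0.23), Esam (-0.19) and Tie1 (-0.15), all with overlapping groups. Fibroblast and perivascular markers lay above 0 in 8 of 8 genes, with a median log2 ratio of 0.33. Their sums were 228.5 to 468.2 CPM in IRI and 300.1 to 565.5 CPM in congested IRI. Only 4 of 8 were higher within all 3 numbers, against 13.1% of all genes, and 4 of 8 differed between replicate numbers, against 8.01%. With the block the log2 ratio of Dcn was 0.01, and Lum differed by -1.79 within number 3. Acta2, the smooth muscle actin of that list, had non-overlapping groups at 46.3 ± 20.5 against 104.3 ± 32.4 CPM (SD, n = 3), a log2 ratio of 1.17 (edgeR adjusted p = 0.933). The part of endothelial, fibroblast or perivascular content in the Nrp2 difference was not tested.

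**Figure D2:**
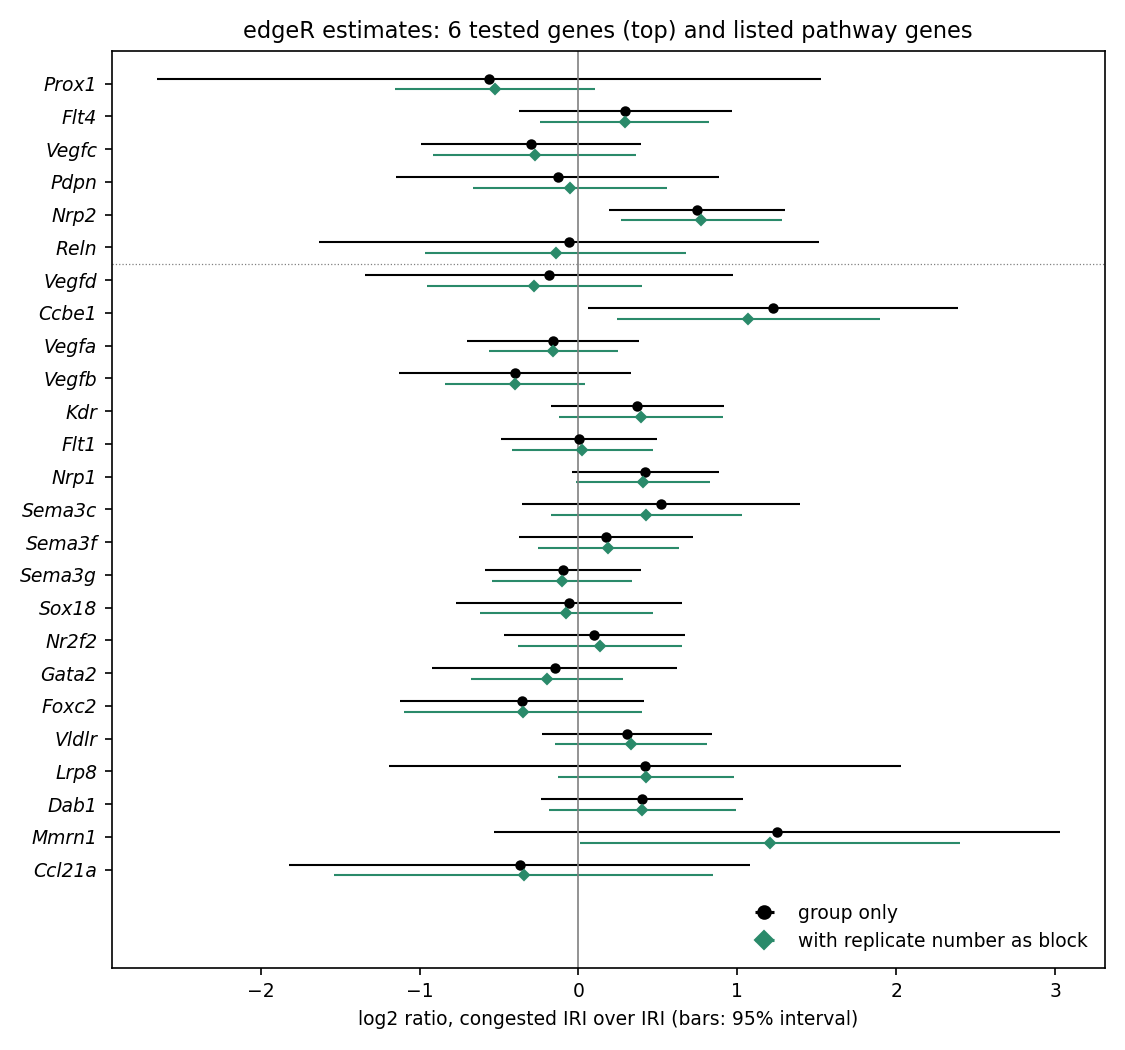
edgeR log2 ratio of congested IRI over IRI with 95% intervals for the 6 tested members (above the dotted line) and the 19 pathway genes of the named groups that were tested, from the fit with group only (black circles) and from the fit blocked on replicate number (green diamonds). With group only, the interval lies above 0 for Nrp2 (0.19 to 1.30) and Ccbe1 (0.06 to 2.39); with the block this also holds for Mmrn1 among the genes plotted, none of which had an adjusted p under 0.05 in either fit.

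The identity gene Prox1 spans bases 190118035 to 190170714 of chromosome 1, minus strand. Counts were 15, 72 and 145 in IRI replicates 1, 2 and 3, or 1.19, 6.15 and 12.8 CPM. They were 13, 48 and 113 in the congested replicates, or 1.17, 3.51 and 8.87 CPM. Replicate 1 was the lowest library of each group, and the groups overlapped over most of their range. The log2 ratio was -0.56 ± 0.90 (SE, 95% interval -2.65 to 1.52, edgeR adjusted p = 0.937). Within numbers it was -0.03, -0.78 and -0.52, and with the block -0.52 (± 0.27 SE, edgeR adjusted p = 0.577). With the length and GC trend also removed, the blocked log2 ratio was -0.78 (edgeR unadjusted p = 0.0231, adjusted p = 0.564). Without IRI replicate 3 the log2 ratio was 0.31. Without congested replicate 3 it was -1.50.

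Between replicate numbers, Prox1 was the one tested member that differed, at an edgeR adjusted p of 0.00670 in the fit with group and number. This was 1 of 6 members, against 8.01% of all genes. Markers of the loop of Henle and thick ascending limb, where Prox1 is also made, summed to 1500, 6018 and 6111 CPM in IRI (numbers 1, 2 and 3). In congested IRI they summed to 1939, 3261 and 6242 CPM. All 6 of these markers passed the filter, 0 lay above 0 in congested IRI, and the median log2 ratio was -0.33, or -0.17 with the block. Within number 1, 4 of the 6 were higher in congested IRI, by log2 differences of 1.04 for Slc12a1, 0.84 for Ptger3, 0.40 for Umod and 0.33 for Kcnj1, where Prox1 differed by -0.03. Slc12a1, the sodium-potassium-chloride cotransporter of that segment, lay at 51.0, 942 and 1506 CPM in IRI and 105, 447 and 1105 CPM in congested IRI. Both Prox1 and Slc12a1 were thus lowest in replicate 1 and highest in replicate 3 of each group, as were Kcnj1 and Ptger3. Umod, Cldn16 and Cldn10 of that list were highest in IRI replicate 2 among the IRI libraries. Proximal tubule markers summed in the same order as Prox1, to 1682, 4997 and 6366 CPM in IRI and 1449, 5488 and 5881 CPM in congested IRI. Between replicate numbers 5 of 5 of them differed at an edgeR adjusted p under 0.05, against 2 of 6 loop of Henle markers. The part of tubular cells in the Prox1 level was not tested. Prox1os, an antisense transcript sharing 133 exonic bases with Prox1, had 13 counts in all libraries together.

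Reln spans bases 21884454 to 22344702 of chromosome 5, minus strand. It held 12, 27 and 37 counts in IRI replicates 1, 2 and 3 and 6, 42 and 33 in the congested replicates. The CPM were 0.955, 2.31 and 3.27 in IRI and 0.539, 3.08 and 2.59 in congested IRI, with replicate 1 again the lowest of each group and the groups overlapping. Its log2 ratio was -0.06 (± 0.67 SE, 95% interval -1.63 to 1.52, edgeR adjusted p = 0.987). Leaving out IRI replicate 3 gave 0.36 and leaving out congested replicate 1 gave 0.39. Within numbers the difference was -0.67, 0.39 and -0.32. Between replicate numbers its edgeR adjusted p was 0.0650. Over the 6 libraries the log2 CPM of Reln and Prox1 correlated at a Pearson r of 0.875, the highest of the 15 pairs of tested members, as a description of libraries that share the low replicate 1.

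Because Nrp2 had the separated groups and Prox1 and Reln shared a pattern over libraries, the upstream sequence of these 3 genes is shown for reference. Each window is 200 bases long and ends 50 bases before the RefSeq start farthest upstream (GRCm38.p6), reads 5′ to 3′ on the gene's strand, and overlaps no exon of the GENCODE annotation. RefSeq promoters were found for 6 of the 7 members, all but Lyve1. Capitals mark the GC box GGGCGG or its reverse complement CCGCCC, the core bound by Sp-family factors.
Nrp2, chr1:62703067-62703266, plus strand: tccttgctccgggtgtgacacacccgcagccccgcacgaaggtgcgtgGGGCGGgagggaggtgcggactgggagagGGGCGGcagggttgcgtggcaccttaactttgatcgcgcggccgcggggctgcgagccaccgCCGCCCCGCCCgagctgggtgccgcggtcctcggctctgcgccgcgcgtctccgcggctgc
Prox1, chr1:190170878-190171077, minus strand: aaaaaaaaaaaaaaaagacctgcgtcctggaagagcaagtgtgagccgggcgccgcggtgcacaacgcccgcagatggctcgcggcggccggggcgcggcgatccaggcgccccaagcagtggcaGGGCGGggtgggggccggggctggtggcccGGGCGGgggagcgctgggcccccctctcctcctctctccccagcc
Reln, chr5:22344756-22344955, minus strand: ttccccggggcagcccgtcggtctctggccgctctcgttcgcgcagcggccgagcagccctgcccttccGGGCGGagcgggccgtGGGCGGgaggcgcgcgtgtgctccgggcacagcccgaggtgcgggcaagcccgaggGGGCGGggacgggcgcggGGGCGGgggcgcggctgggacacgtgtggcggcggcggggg

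The Nrp2 window held 4 GC boxes, that of Prox1 2 and that of Reln 4, counted on both strands with overlaps allowed. GC content was 75.5%, 72.0% and 82.0%, against a median of 51.5% over 32841 RefSeq windows of the same length, of which 24.6% held at least 1 GC box. All 3 windows are thus GC-rich, including that of Nrp2, whose level over libraries differed from that of Prox1 and Reln. The match is a description of letters and says nothing of binding in these kidneys.

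Pdpn spans bases 143267431 to 143299564 of chromosome 4, minus strand. Its counts were 222, 166 and 66 in IRI replicates 1, 2 and 3, or 17.7, 14.2 and 5.83 CPM. They were 122, 212 and 101 in the congested replicates, or 10.9, 15.5 and 7.92 CPM. Replicate 3 was the lowest library of each group, and every congested library lay within the IRI range. Its log2 ratio was -0.13 (± 0.44 SE, 95% interval -1.15 to 0.88, edgeR adjusted p = 0.968). Leaving out IRI replicate 1 gave 0.20, leaving out congested replicate 3 gave 0.08, and scaling by total counts in place of TMM factors gave 0.00814. Within numbers the difference was -0.68, 0.13 and 0.43. Podocyte markers summed to 307 to 339.5 CPM in IRI and 327.3 to 390.7 CPM in congested IRI over 7 genes, and mesothelial markers to 22.6 to 95.4 and 28.3 to 88.7 CPM over 4. The fibroblast and perivascular list summed to 228.5 to 468.2 and 300.1 to 565.5 CPM over 8 genes, and the part of these cells in the Pdpn level was not tested.

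Lyve1 spans bases 110850607 to 110863239 of chromosome 7, minus strand. It held 8, 3 and 2 counts in IRI replicates 1, 2 and 3 and 13, 51 and 4 in the congested replicates, too few to pass the filter. In CPM these were 0.636, 0.256 and 0.177 in IRI and 1.17, 3.73 and 0.314 in congested IRI. Congested replicate 2 held most of the reads, and congested replicate 3 lay below IRI replicate 1, so the groups overlapped. Within numbers 1, 2 and 3 the log2 difference was 0.73, 3.21 and 0.49.

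Pooled by group, Lyve1 had 13 counts in IRI, or 0.365 CPM with an exact 95% Poisson interval of 0.194 to 0.624. In congested IRI it had 68 counts, or 1.81 CPM with an interval of 1.41 to 2.30, both covering counting error only. Without congested replicate 2 the congested libraries pooled to 17 counts, or 0.712 CPM (0.415 to 1.14), an interval that overlaps that of IRI. With no filter on low counts edgeR gave a log2 ratio of 2.25 (± 0.83 SE, adjusted p = 0.822), and 1.01 (± 0.87 SE, adjusted p = 0.992) without congested replicate 2. The group difference in Lyve1 thus rested largely on 1 library.

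In that library Mmrn1, a lymphatic and vascular secreted glycoprotein, was also at its highest. Mmrn1 had 2.23, 1.28 and 0.353 CPM in the IRI libraries and 1.88, 6.00 and 1.33 CPM in the congested replicates. Its log2 ratio was 1.25 (± 0.76 SE, edgeR adjusted p = 0.933), and 0.31 without congested replicate 2. Mesothelial markers stood at 88.7 CPM in congested replicate 2 against 28.3 and 35.7 CPM in the other congested libraries, and at 95.4 CPM in IRI replicate 1. Most of these last and first sums was Krt19, at 64.9 CPM in congested replicate 2 and 77.1 CPM in IRI replicate 1. Upk3b and Msln were highest in congested replicate 2, at 10.25 and 6.44 CPM, against at most 4.33 and 6.28 CPM elsewhere. Wt1, also of that list, was at 7.10 CPM there and highest in congested replicate 1 at 9.42 CPM. The fibroblast and perivascular list was also highest in congested replicate 2, at 565.5 CPM against 300.1 and 424.6 CPM in the other congested libraries and 228.5 to 468.2 CPM in IRI. Its matrix proteoglycan gene Lum lay at 5.20 CPM there and at most at 1.77 CPM elsewhere. Macrophage markers, a second source of Lyve1, summed to 77.7 CPM there, the lowest of the congested libraries (77.7 to 97.4 CPM, against 62.0 to 104.5 CPM in IRI, 10 genes). Of the resident macrophage genes Timd4 and Folr2 were at 0 in 5 of 6 libraries each, with 1 count in the other. Cd163, of the same list and also too low to test, was highest in congested replicate 2, at 7 counts against 1 to 5 elsewhere. Mrc1, a mannose receptor, was highest in congested replicate 2 at 4.54 CPM, against 1.33 to 2.69 CPM in the other 5 libraries. The part of these cells in the Lyve1 and Mmrn1 levels was not tested. Ccl21a, a chemokine of lymphatic endothelium, did not share the peak, at 2.39, 3.67 and 0.883 CPM in IRI and 0.718, 2.42 and 2.20 CPM in congested IRI.

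**Figure D3:**
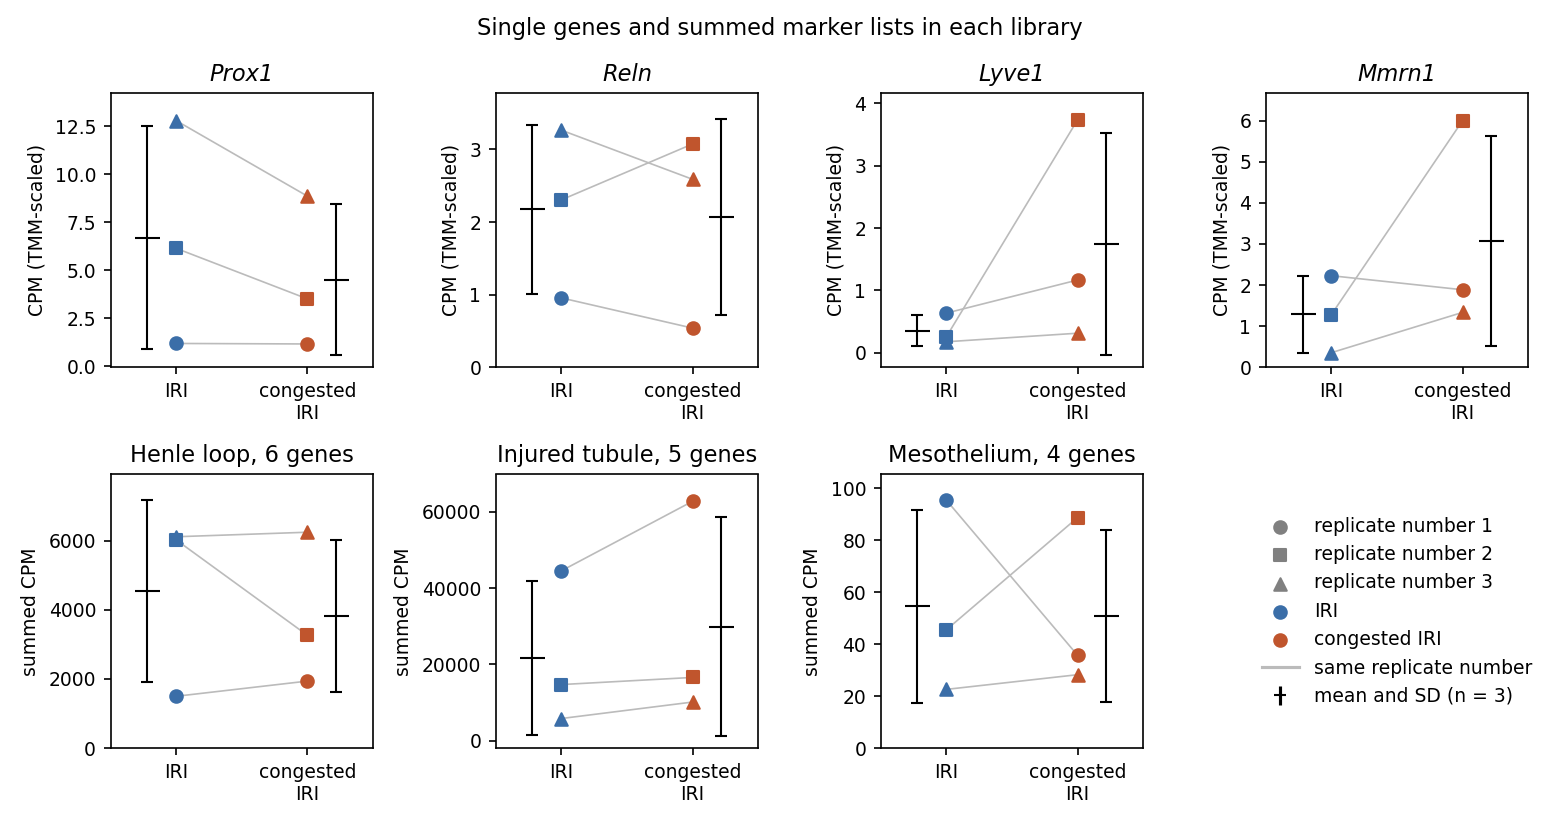
TMM-scaled CPM of Prox1, Reln, Lyve1 and Mmrn1 (top row) and summed CPM of 3 marker lists (bottom row) by library, with shapes for replicate numbers and black bars for mean and SD (n = 3). Prox1, Reln and the Henle loop list are lowest in replicate 1 of each group. The injured tubule list, mostly Spp1, is highest there, at 44520 and 62730 CPM. Lyve1 and Mmrn1 peak in congested replicate 2 at 3.73 and 6.00 CPM.

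Around the 7 genes, 42 further genes of VEGF-C processing, VEGF and semaphorin signalling, lymphatic transcription factors and lymphatic endothelium were listed. Of these 40 were in the table and 34 were tested. edgeR called 0 higher and 0 lower, as did DESeq2 and limma-voom. At an unadjusted edgeR p under 0.05, 1 of 34 passed, against 2% of all genes. Of the 34, 19 lay above 0, the median log2 ratio was 0.09 (all genes -0.00460) and the values ran from -0.40 to 1.25. With the block 5 of 34 had an unadjusted p under 0.05, against 7.06% of all genes, and 0 were called. These 5, named after their values were seen, were Ccbe1, Mmrn1, Itga9 (blocked 95% interval 0.03 to 0.95), S1pr1 (0.07 to 1.02) and Piezo1 (0.29 to 1.85). S1pr1 is a sphingosine-1-phosphate receptor of endothelium and Piezo1 a mechanically gated ion channel. Groups did not overlap with congested IRI higher in 4 of 34, against 3.42% of all genes, and lower in 0 of 34, against 3.07%. Within equal replicate numbers, 8 of 34 were higher in congested IRI in all 3 and 3 of 34 lower in all 3, against 13.1% of all genes each.

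Among the genes of VEGF-C activation, Ccbe1, which encodes a secreted cofactor of VEGF-C cleavage, had non-overlapping groups. It had 4.69, 3.33 and 5.74 CPM in the IRI libraries and 19.4, 6.30 and 6.59 CPM in the congested replicates. Congested replicate 1 was far above the other 5 libraries. The log2 ratio was 1.23 (± 0.50 SE, 95% interval 0.06 to 2.39, unadjusted p = 0.0414, edgeR adjusted p = 0.933), and 0.49 without that library. Within numbers the difference was 2.01, 0.89 and 0.19. Adamts3, the protease that cleaves VEGF-C, was too low to test, at 2, 3 and 6 counts in IRI and 2, 12 and 3 in congested IRI.

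The other VEGF ligands showed no separation of groups. Vegfd, the second ligand of the Flt4 receptor, had a log2 ratio of -0.19 (± 0.50 SE, edgeR adjusted p = 0.959). It lay at 2.86, 4.53 and 5.56 CPM in IRI and 1.53, 4.47 and 5.34 CPM in congested IRI, lowest in replicate 1 of each group. Vegfa and Vegfb, which act mainly on blood vessels, had log2 ratios of -0.16 (± 0.23 SE) and -0.40 (± 0.31 SE). Both were lower in congested IRI within all 3 numbers. For Vegfa this depends on the match of numbers 2 and 3, as congested replicate 3 (148.5 CPM) lay above IRI replicate 2 (142.5 CPM). Pgf was too low to test, at 0 to 11 counts.

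Of the other receptors, Nrp1, the neuropilin closest to Nrp2, also had non-overlapping groups, at 52.4 ± 1.43 CPM in IRI and 70.2 ± 12.3 CPM in congested IRI (SD, n = 3). Its log2 ratio was 0.42 (± 0.20 SE, edgeR adjusted p = 0.933), with differences of 0.23, 0.67 and 0.31 within numbers. Kdr, the main VEGF-A receptor, had a log2 ratio of 0.37 (± 0.23 SE) and Flt1, a decoy for VEGF-A, one of 0.00440 (± 0.21 SE). The other genes with congested libraries above all IRI libraries, Itga9 and Hhex, are named after their values were seen. Itga9, an integrin subunit of lymphatic valves, lay at 11.0 ± 1.17 against 15.5 ± 2.28 CPM (SD, n = 3), and Hhex, a transcription factor upstream of Prox1 and Flt4, at 1.38 ± 0.0822 against 1.84 ± 0.309 CPM (SD, n = 3).

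The semaphorins that bind neuropilins had log2 ratios of 0.52 for Sema3c (± 0.37 SE), 0.17 for Sema3f (± 0.24 SE) and -0.10 for Sema3g (± 0.21 SE), and Sema3a was too low to test at 1 to 17 counts. The lymphatic transcription factor genes had log2 ratios of -0.06 for Sox18 (± 0.31 SE), 0.10 for Nr2f2 (± 0.24 SE), -0.15 for Gata2 (± 0.33 SE) and -0.36 for Foxc2 (± 0.33 SE). Sox18 and Nr2f2 act upstream of Prox1, and Gata2 and Foxc2 in lymphatic valves. The groups overlapped for each of these 7 genes, unlike those of the transcription factor gene Hhex given above.

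The receptors and adaptor of the Reln product gave log2 ratios of 0.31 for Vldlr (± 0.23 SE), 0.42 for Lrp8 (± 0.69 SE) and 0.40 for Dab1 (± 0.27 SE), with overlapping groups. Lrp8 differed between replicate numbers at an edgeR adjusted p of 0.0111, and was highest in replicate 1 of both groups at 16.8 and 21.0 CPM against 3.97 to 10.5 CPM elsewhere. Without congested replicate 1 its log2 ratio was -0.29. Clec1b, the platelet receptor for the Pdpn product, held 1 to 5 counts per library and was not tested. Ccl21a had a log2 ratio of -0.37 (± 0.62 SE, edgeR adjusted p = 0.941).

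**Figure D4:**
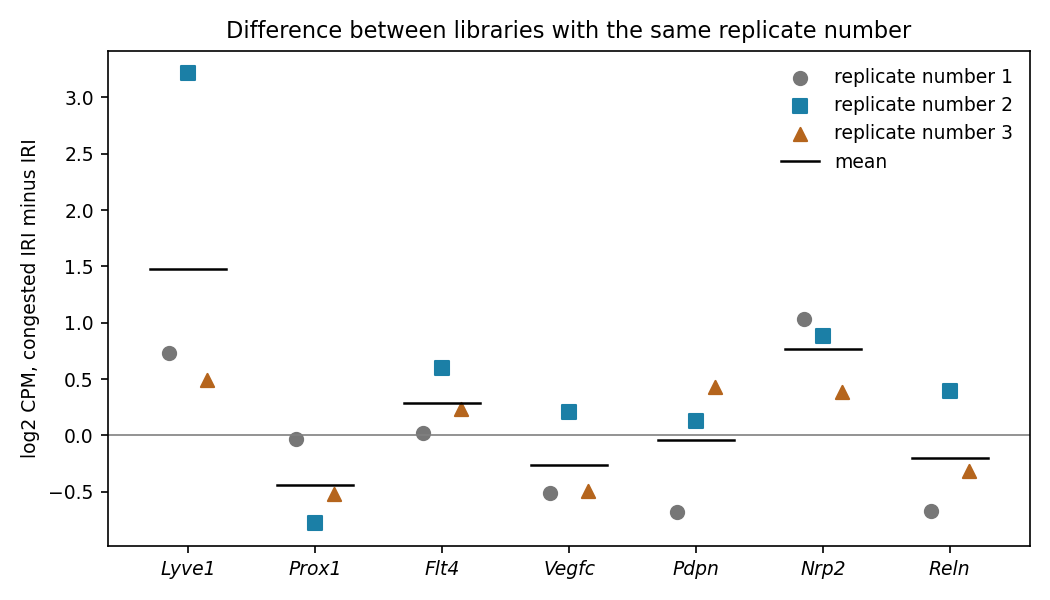
Difference in log2 CPM (congested IRI minus IRI) between libraries of equal replicate number for the 7 genes, with a point for each number and a black line at the mean. Lyve1, Flt4 and Nrp2 lie above 0 in all 3 numbers and Prox1 below 0 in all 3, with Lyve1 reaching 3.21 in number 2. The data do not tell numbers 2 and 3 apart. For Prox1 the direction depends on that match, as congested replicate 3 (8.87 CPM) lay above IRI replicate 2 (6.15 CPM).

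For each tested member, the 2 genes with the most similar log2 CPM over the 6 libraries were taken from tested genes whose mean reached 5 CPM, as a description without a test. Nrp2 was followed most closely by Gemin5 (Pearson r 0.992) and Npc1 (0.991). Both had congested libraries above all IRI libraries, which follows largely from picking them for likeness to Nrp2. Flt4 was nearest to Eml1 (0.987) and Phf8 (0.980), and Pdpn to Cavin1 (0.980) and Tomm34 (0.979). Prox1 was nearest to Fam107a (0.997) and Slc22a13 (0.996), and Reln to Prnp (0.996) and Fzd8 (0.996). Fam107a lay at 7.71 and 9.06 CPM in replicate 1 of the groups and at 22.3 to 98.7 CPM in the others. Vegfc, with Ints12 (0.955) and Eprs1 (0.945), had the weakest nearest match. These are the highest of 10975 or 10976 candidates over only 6 libraries.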

How the data were processed

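Total RNA from kidney cortex was sequenced after a stranded library preparation for polyadenylated RNA, per the labels' protocols. The deposited table holds raw whole-number counts per gene, 1 column per library, as its values show. Per the submitters' processing notes, the tools included STAR 2.7.10a, featureCounts and Subread, with the build GRCm38. Not given in the sources used here are the annotation, strand setting and multimapping rule, and Prox1 and Reln may share reads with antisense transcripts.

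Counts were tested with edgeR 4.0.16 (R 4.3.3; TMM factors, filterByExpr with minimum count 10 and minimum total 15, robust quasi-likelihood F test, group as term), adjusted by Benjamini-Hochberg over all 14274 tested genes at 0.05. The 20 symbols found on more than 1 feature were kept apart. Log2 CPM used a prior count of 2. The fit was also run on simulated data, whose spread was estimated with the replicate block. The common coefficient of variation was 0.211 with the block and 0.337 in the main fit. The simulated data were thus quieter than those of the main fit, and nothing is drawn from that run. Replicates of a group differed beyond sampling noise (chi-square per degree of freedom 18.8 to 194).

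Libraries are numbered 1 to 3 within each group, and the labels leave the meaning of a number unstated. Deviations from group means correlated at 0.724, 0.342 and 0.429 in equal numbers, each above 0.1. Crossed, IRI replicate 2 with congested replicate 3 gave 0.401 and IRI replicate 3 with congested replicate 2 gave 0.249. These are also above 0.1, so the data set number 1 apart but do not tell numbers 2 and 3 from each other. Equal numbers were therefore used only for within-number values and for the block as an alternative, and the main fit had group only. That match comes from the data and not from the labels. Alternatives were other scaling, filters, DESeq2 1.42.0, limma-voom (limma 3.58.1), non-robust dispersion, the replicate block, a length and GC trend removed (mgcv 1.9.3, GENCODE GRCm38, values for 95.6% of tested genes) and each library left out. Named genes were the 7 members, the VEGF, neuropilin, semaphorin, transcription factor and Reln pathway genes of the list, and the 2 nearest genes of each member. Members and lists were chosen with earlier results of these data known.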

Additional observations from a re-analysis of the deposited data

How the results depend on the processing

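No tested member and none of the 19 tested pathway genes of the named groups was called under any alternative run. The number of genes called was 0 in every alternative except DESeq2 with the replicate block, which called 10. Genes at an unadjusted p under 0.05 numbered 285 without and 1008 with the replicate block in edgeR, and the block changed no call (smallest adjusted p 0.577). Nrp2 kept its direction under every alternative, and its unadjusted p was above 0.05 only without IRI replicate 2 (0.0564). Nrp2 was 0.75 without and 0.77 with the block. Direction turned for Pdpn (0.00814 with total counts, 0.12 with the length and GC trend removed, 0.14 with the trend and the block), Reln (0.0303 with total counts), Flt1 (-0.00592 with RLE factors, -0.00588 with DESeq2, -0.24 with the trend removed, -0.22 with trend and block), Sema3g (0.0145 with total counts), Sox18 (0.0356 with total counts, 0.14 with the trend removed, 0.15 with trend and block) and Ccl21a (0.10 with the trend removed, 0.0429 with trend and block). The cause was not tested. The median of all genes was 0.10 with total counts.

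Leaving out each library in turn gave log2 ratios of -1.50 to 0.31 for Prox1, 0.14 to 0.50 for Flt4, -0.47 to -0.14 for Vegfc, -0.47 to 0.20 for Pdpn, 0.62 to 0.97 for Nrp2 and -0.46 to 0.39 for Reln. Of those 19 pathway genes, the ones that turned were Vegfd (-0.51 to 0.18), Flt1 (-0.15 to 0.14), Sema3g (-0.19 to 0.0285), Sox18 (-0.21 to 0.12), Nr2f2 (-0.0173 to 0.37), Gata2 (-0.38 to 0.12), Lrp8 (-0.29 to 1.28) and Ccl21a (-0.75 to 0.12). Too few counts kept Lyve1 and the pathway genes Adamts3, Pgf, Sema3a, Clec1b, Ccr7 and Tbx1 out of the main test. Lyve1 had an unadjusted edgeR p under 0.05 with no filter (0.0178), without IRI replicate 1 and without congested replicate 3. It was not called in any of these runs.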
